A study of Homo sapiens with 12 samples.

Results

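The Affymetrix Human Transcriptome Array 2.0 summarizes probes into transcript clusters, and some clusters carry the names of more than 1 gene. A microRNA in an intron, a small nucleolar RNA in its host, an antisense transcript or a near-identical gene copy is then measured together with its partner. The rows described here are the transcript clusters with 2 or more gene symbols in the platform annotation and a mean log2 signal of at least 5 over the 6 gene-level arrays. There were 1393 such rows among 67528 transcript clusters. Another 147 rows with 2 or more symbols lay below that minimum, and 52385 clusters of any naming passed it and were tested. A row is named by all its symbols joined by a slash, because its value cannot be given to one of them.

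PPIL3 knockdown was made in HEK293T, an SV40 T antigen derivative of human embryonic kidney cells, with a lentivirus for a short hairpin RNA against PPIL3 and selected with puromycin. The controls were HEK293T cells that went through the same transduction and selection with a scrambled hairpin (SCR). Total RNA of 3 arrays per group was given both as gene-level values and as probe set values, so the 12 samples are 6 arrays summarized in 2 ways. The sample titles and the source names number the PPIL3 hairpin differently. Each group is 1 hairpin in 1 line, whether arrays of a group go back to different transductions is not stated, and the p-values therefore measure only the spread between these arrays.

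PPIL3 is a cyclophilin, a peptidyl prolyl isomerase of the spliceosome, and the study's question was what its loss does to transcripts. Many microRNAs and nearly all human C/D and H/ACA small nucleolar RNAs (snoRNAs) lie in introns and are released from the spliced intron or cut from it beside splicing. SnoRNAs guide the methylation and pseudouridylation of ribosomal RNA, and microRNAs repress messenger RNAs through their seed. Antisense transcripts run across a neighbour on the other strand, and readthrough transcripts join 2 neighbouring genes. A host and its intronic RNA can differ in abundance, since the intronic RNA outlives the intron.

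All values are deposited log2 RMA signals, and a difference is PPIL3 knockdown minus SCR. PPIL3 itself (TC02002668.hg.1, a row with 1 symbol) read 7.30, 7.26 and 7.28 on the knockdown arrays and 7.75, 7.81 and 7.81 on the SCR arrays. The difference was -0.51 (SE 0.035) with a limma adjusted p of 0.029 over all tested rows, and that adjusted p ranged from 0.092 to 0.32 when any single array was left out. The 7 HEK293T markers lay between 7.70 and 10.81 in knockdown cells and between 7.73 and 10.95 in SCR cells. Of 14 markers of other cell types with a row of their own, 4 lay below the minimum (ALB, LUM, PTPRC and DCN) and none of the other 10 passed the test. Those 10 lay between 5.0 and 8.20 in knockdown cells and between 5.03 and 8.20 in SCR cells, and COL1A1 (8.20 in knockdown and SCR cells) and ACTN2 (7.73 in knockdown cells) read above the HEK293T marker PAX2 (7.70 in knockdown cells). The ranges of the 2 marker lists thus overlapped.

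No shared row passed the test over all tested rows. Of the 1393 rows 0 had a limma adjusted p under 0.05, against 32 of all 52385 tested rows (0.0611%) and 0.0852% of the rows with 1 symbol. When only the 22516 rows that carry a symbol were fitted and adjusted, 7 shared rows passed (0.503%), against 0.564% of those rows, and 269 shared rows had an unadjusted p under 0.05. They were PALMD/MIR548AA1, SMIM13/C6orf228 and 5 rows of SNHG32/SNORD52/SNORD48. At an unadjusted p under 0.05 there were 229 shared rows (16.4%), against 11.4% of all tested rows and 12.2% of the 21123 rows with 1 symbol. The 3 knockdown values lay wholly above or wholly below the 3 SCR values in 328 shared rows (23.5%), against 16.8% of all tested rows and 20.2% of the rows with 1 symbol. Of the 1393 shared rows 549 were higher and 843 lower in knockdown cells (60.5% lower), and 55.4% of all tested rows were lower. In bulk RNA, fewer cells of a type and less RNA per cell cannot be told apart. The median difference was -0.02 over shared rows and -0.01 over all tested rows. The differences were small, since 1055 of the shared rows lay within 0.1 of 0 and 7 lay beyond 0.5 in either direction. These counts include repeated measurements, because 141 rows fell into 43 sets with the same value on every array and 136 rows lay on alternative sequences of the major histocompatibility complex, which left 1295 distinct profiles.

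The partners fell into 4 kinds, taken in the order MIR, SNOR, -AS and other where a row held several. MIR rows numbered 204, SNOR rows 77, -AS rows 33 and other rows 1079. Of the MIR rows 7 also held a snoRNA symbol and 2 an antisense symbol. The median level was 8.53 in knockdown cells and 8.61 in SCR cells for MIR rows, 9.14 and 9.32 for SNOR rows, 7.35 and 7.33 for -AS rows, and 7.97 and 7.95 for other rows, each with knockdown first. The median difference was -0.02 in MIR rows, -0.03 in SNOR rows, 0.00 in -AS rows and -0.02 in other rows. Lower values in knockdown cells were found in 120 of 204 MIR rows (58.8%), 54 of 77 SNOR rows (70.1%), 15 of 33 -AS rows (45.5%) and 654 of 1079 other rows (60.6%), against 55.4% of all tested rows. The unadjusted p was under 0.05 in 32 MIR rows (15.7%), 20 SNOR rows (26%), 2 -AS rows (6.06%) and 175 other rows (16.2%), against 11.4% of all tested rows. Copies of the same measurement are counted here. The 204 MIR rows held 193 distinct profiles, the 77 SNOR rows 72, the 33 -AS rows 32 and the 1079 other rows 998. SNHG32 alone fills 5 of the SNOR rows. Of the 175 other rows, 16 were of 5S ribosomal RNA, 9 of U1 and 7 of U6, with few distinct profiles. Kinds were not tested against each other, because rows are not replicates.

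**Figure D1:**
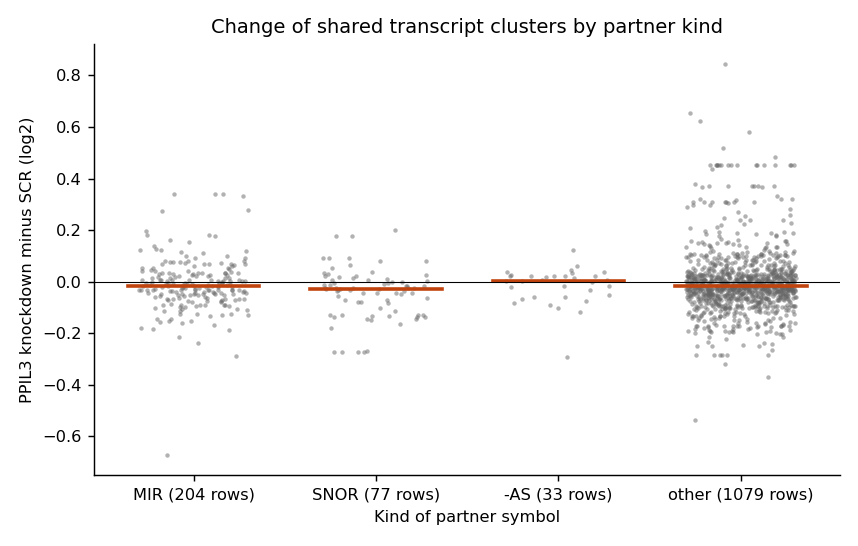
Difference between PPIL3 knockdown and SCR (log2, vertical axis) for each shared transcript cluster, grouped by partner kind, with 1 point a row and a bar at the median. Most of the 1393 points lie within 0.1 of 0, and the points beyond 0.5 belong to 1 MIR row and 6 other rows.

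The microRNAs named in the MIR rows are shown first, because a row gives 1 value for all its symbols and no value for a mature product. The MIR rows held 241 microRNA symbols, of which 222 had a sequence in RefSeq (GRCh38.p14), with 303 mature sequences and 281 different seeds. The seed is bases 2 to 8 and is printed in capitals, and 19 seeds were held by 2 or more mature microRNAs. The widest seed family was AGCAGCA, shared by 5 of them (miR-15a-5p, miR-16-5p, miR-195-5p, miR-424-5p and miR-497-5p). Some microRNAs of the MIR rows described below are given here, most of them chosen after the values of their rows were seen. They include those of the row with the cyclophilin gene PPIL2 and of the 2 brightest MIR rows. No 2 of the printed microRNAs had the same seed.
hsa-miR-4785: aGAGUCGGcgacgccgccagc
hsa-miR-4329: cCUGAGACccuaguuccac
hsa-miR-1178-3p: uUGCUCACuguucuucccuag
hsa-miR-3198: gUGGAGUCcuggggaauggaga
hsa-miR-1909-3p: cGCAGGGGccgggugcucaccg
hsa-miR-196b-5p: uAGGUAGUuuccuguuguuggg
hsa-miR-130b-3p: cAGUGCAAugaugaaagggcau
hsa-miR-3654: gACUGGACaagcugaggaa
hsa-miR-3652: cGGCUGGAggugugagga
The positions were chr2:160407819-160407839 for miR-4785, chrX:112780728-112780746 for miR-4329, chr12:119713649-119713669 for miR-1178-3p and chr12:54231407-54231428 for miR-3198, all on the minus strand of GRCh38.p14. miR-130b-3p lay on the plus strand at chr22:21653354-21653375.

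Among MIR rows the smallest p belonged to PALMD/MIR548AA1 (TC01000892.hg.1), where PALMD encodes palmdelphin, a protein of the paralemmin family. It read 6.09, 6.08 and 6.03 on the knockdown arrays, against 5.76, 5.77 and 5.68 on the SCR arrays. All 3 knockdown values lay above all 3 SCR values. The difference was 0.33 (SE 0.041), with an adjusted p of 0.082 over all tested rows. When only rows with a symbol were fitted, the adjusted p was 0.026. The 2 symbols lie on different chromosomes in RefSeq, so the row joins loci rather than a host and its intron. Its 11 exon probe sets had a median difference of 0.44 and ran between -0.22 and 0.76. The row's mean over the 6 arrays was 5.90, so it was not in the fit with a minimum of 6. Among markers of other cell types CD3E averaged 6.47 and HBB 5.64. Whether PALMD/MIR548AA1 lay above background was not tested.

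RBMS1/MIR4785 (TC02002470.hg.1) was next, and RBMS1 encodes a single-stranded nucleic acid binding protein. Its signal was 8.05, 8.17 and 8.11 in knockdown cells, against 8.32, 8.36 and 8.36 in SCR cells. The groups did not overlap and the difference was -0.24 (SE 0.041), with an adjusted p of 0.14. Over its 38 exon probe sets the median difference was -0.25. MIR4785 lies inside RBMS1 on the same strand, and its seed is GAGUCGG as printed.

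**Figure D2:**
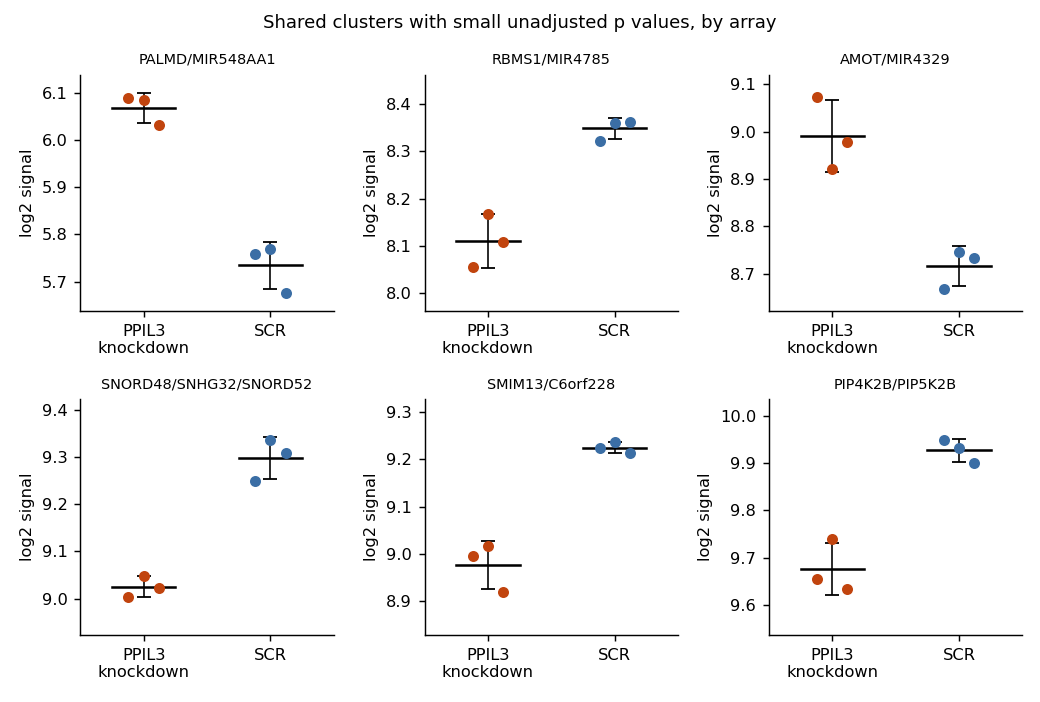
Log2 signal (vertical axis) of 6 shared rows on the 3 PPIL3 knockdown arrays and the 3 SCR arrays, with the mean as a bar and the SD as whiskers. The groups do not overlap in any of the 6, with the knockdown arrays above for PALMD/MIR548AA1 and AMOT/MIR4329 and below for the other 4.

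Other MIR rows also had groups that did not overlap, and none passed the test. They were chosen after their values were seen. AMOT/MIR4329 (TC0X001286.hg.1), whose host encodes angiomotin, a regulator of Hippo signalling, read 9.07, 8.92 and 8.98 in knockdown cells and 8.67, 8.75 and 8.73 in SCR cells (difference 0.28, SE 0.05). CBX5/MIR3198-2 (TC12001566.hg.1), whose host is the heterochromatin protein HP1 alpha, read 10.97, 10.996 and 10.97 in knockdown cells and 10.74, 10.84 and 10.82 in SCR cells (difference 0.18, SE 0.038). In both rows every knockdown array stood above every SCR array. CIT/MIR1178 (TC12002032.hg.1), for citron kinase of cytokinesis, read 9.05, 9.10 and 9.09 in knockdown cells and 9.23, 9.28 and 9.28 in SCR cells (difference -0.18, SE 0.035). REXO1/MIR1909 (TC19001014.hg.1) read 8.75, 8.71 and 8.64 in knockdown cells and 8.91, 8.86 and 8.87 in SCR cells (difference -0.18, SE 0.042). MIR196B lies on the minus strand inside the span of HOXA10-AS, whose strand was not given, so HOXA10-AS is not shown to be its host. HOXA10-AS/MIR196B (TC07000168.hg.1), in the HOXA cluster of body axis genes, read 8.36, 8.31 and 8.30 in knockdown cells and 8.44, 8.50 and 8.50 in SCR cells (difference -0.16, SE 0.037). In these 3 rows every knockdown array stood below every SCR array, and the adjusted p of the 5 rows lay between 0.16 and 0.23.

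The well-known microRNA hosts VMP1 and MIR17HG differed less. VMP1/MIR21 (TC17000727.hg.1), a vacuole membrane protein gene whose annotated span holds the growth-promoting miR-21 on the same strand, read 11.28, 11.34 and 11.38 in knockdown cells and 11.42, 11.45 and 11.41 in SCR cells (difference -0.09, adjusted p 0.44). Its groups did not overlap. The row of the miR-17 cluster host MIR17HG with 7 microRNA symbols (TC13000322.hg.1) read 7.53, 7.82 and 7.53 in knockdown cells and 7.80, 7.59 and 7.58 in SCR cells, and the groups overlapped (difference -0.03, adjusted p 0.95). Of its symbols MIR18B lies on the X chromosome and not in that cluster. The brightest MIR rows were EEF1G/MIR3654 (TC11003483.hg.1), for a translation elongation factor subunit that lies on another chromosome than MIR3654 and is not its host, and HSP90B1/MIR3652 (TC12000803.hg.1), for a chaperone of the endoplasmic reticulum. EEF1G/MIR3654 read 12.68, 12.76 and 12.81 in knockdown cells and 12.78, 12.81 and 12.82 in SCR cells (difference -0.05, adjusted p 0.69). HSP90B1/MIR3652 read 12.29, 12.42 and 12.38 in knockdown cells and 12.22, 12.32 and 12.30 in SCR cells (difference 0.08, adjusted p 0.59). The groups overlapped in both.

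By position in RefSeq, 110 MIR or SNOR rows had the small RNA inside another gene of the row on the same strand. In 6 rows it lay inside on the opposite strand, and in 93 inside with no strand given for one of them. In 23 rows it lay outside, with a median difference of 0.00 and 6 rows at an unadjusted p under 0.05 (26.1%, against 11.4% of all tested rows). The median difference was -0.02 in the 110 rows on the same strand and -0.03 in the 93 rows without a strand. In 49 rows every symbol was a microRNA or snoRNA, and their median difference was 0.03 with 29 of 49 higher in knockdown cells. Of 49 such rows 4 had an unadjusted p under 0.05 (8.16%, against 11.4% of all tested rows) and 6 had groups that did not overlap (12.2%, against 16.8%). The 49 rows held 39 distinct profiles, and 3 rows of MIR1184 with the same values count in both the 4 and the 6. The median SD of the 49 rows was 0.127 in knockdown cells and 0.0961 in SCR cells, against 0.0589 and 0.0373 over all shared rows, so rows of small RNAs alone were noisier in both groups.

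In 12 MIR rows a pair of hairpins overlapped on opposite strands, so that both strands of 1 hairpin locus carried a microRNA name. The mature pairs are shown here because they are complementary while their seeds differ.
hsa-miR-338-3p: uCCAGCAUcagugauuuuguug
hsa-miR-3065-5p: uCAACAAAaucacugaugcugga
hsa-miR-499a-5p: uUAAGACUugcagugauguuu
hsa-miR-499b-3p: aACAUCACugcaagucuuaaca
hsa-miR-423-5p: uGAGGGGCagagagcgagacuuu
hsa-miR-3184-3p: aAAGUCUCgcucucugccccuca
The longest complementary run was 22 bases between miR-338-3p and miR-3065-5p, 20 bases between miR-499a-5p and miR-499b-3p, and 23 bases between miR-423-5p and miR-3184-3p. miR-499a-3p had the same seed as miR-499b-3p, and miR-3184-5p the same seed as miR-423-5p. MIR338/MIR3065 (TC17001943.hg.1) read 7.62, 7.45 and 7.65 in knockdown cells and 7.67, 7.76 and 7.67 in SCR cells (difference -0.13, adjusted p 0.5). MIR499A/MIR499B (TC20000247.hg.1) read 8.28, 8.20 and 8.26 in knockdown cells and 8.34, 8.13 and 8.09 in SCR cells, with overlap (difference 0.06, adjusted p 0.8). MIR423/NSRP1/MIR3184 (TC17000347.hg.1), where NSRP1 is a speckle protein that regulates splicing, read 9.53, 9.62 and 9.51 in knockdown cells and 9.48, 9.51 and 9.53 in SCR cells (difference 0.05, adjusted p 0.71).

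Identical hairpins shared a row in 18 cases. The 3 copies of MIR1184 on the X chromosome have 1 hairpin sequence of 99 bases, and the mature product is shown because no probe could tell the copies apart.
hsa-miR-1184: cCUGCAGCgacuugauggcuucc
MIR1184-1/MIR1184-2/MIR1184-3 (TC0X001548.hg.1) read 8.31, 8.47 and 8.20 in knockdown cells and 8.09, 7.91 and 7.95 in SCR cells. The groups did not overlap, and the difference was 0.34 (SE 0.08) with an adjusted p of 0.23. The same values stood in 3 rows with these symbols, so they are 1 measurement. The lowest difference of any MIR row was -0.67 (SE 0.31) in SNORA2C/MIR1291 (TC12001453.hg.1), a locus named both as a snoRNA and as a microRNA.
hsa-miR-1291: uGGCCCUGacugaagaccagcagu
It read 9.99, 9.49 and 10.79 in knockdown cells and 10.61, 10.67 and 11.001 in SCR cells. Knockdown array 3 lay inside the SCR range and the adjusted p was 0.49, so the size of the difference went with a wide spread.

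The hosts of snoRNAs were next. The SNOR row with the smallest p was SNORD48/SNHG32/SNORD52 (TC06000386.hg.1), a noncoding host gene in the class III region of the histocompatibility complex. It read 9.004, 9.05 and 9.02 in knockdown cells, against 9.25, 9.34 and 9.31 in SCR cells. Every knockdown array lay below every SCR array. The difference was -0.27 (SE 0.038), with an adjusted p of 0.099 in the fit of all tested rows and 0.033 when only rows with a symbol were fitted. The same locus on an alternative sequence (TC6_apd_hap1000041.hg.1) read 9.02, 9.07 and 9.05 in knockdown cells and 9.27, 9.36 and 9.33 in SCR cells, and such copies are not independent measurements. Over the 16 exon probe sets of the first row the median difference was -0.28.

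SNHG genes are noncoding hosts whose spliced RNA is mostly degraded while the intronic snoRNAs persist. All 20 SNOR rows with an SNHG symbol read lower in knockdown cells, with differences between -0.27 and -0.01 and a median of -0.06. They stand for 13 genes, since SNHG32 fills 5 near-identical rows and SNHG14 fills 4, and over genes the median was -0.06. The 8 rows with an unadjusted p under 0.05 belong to 4 genes (SNHG32, SNHG6, SNHG16 and SNHG7), beside 5.62% of all tested rows that were lower at that p. The 11 rows whose groups did not overlap belong to 7 genes, beside 8.81% of all tested rows that were lower without overlap. This group was picked after its values were seen and so has no test of its own, and none of its rows passed the test. SNORD87/SNHG6 (TC08001290.hg.1) read 7.23, 7.34 and 7.24 in knockdown cells and 7.46, 7.44 and 7.40 in SCR cells (difference -0.16, SE 0.044). SNORD1C/SNHG16 (TC17000875.hg.1) read 10.52, 10.51 and 10.45 in knockdown cells and 10.60, 10.63 and 10.63 in SCR cells (difference -0.13, SE 0.036). SNORA17A/SNORA17B/SNHG7 (TC09001739.hg.1) read 8.84, 8.93 and 8.93 in knockdown cells and 9.04, 9.02 and 9.02 in SCR cells (difference -0.13, SE 0.038). The SNHG1 row with 8 snoRNAs (TC11001884.hg.1), in contrast, read 10.10, 9.98 and 10.14 in knockdown cells and 10.04, 10.10 and 10.10 in SCR cells, with overlap (difference -0.01, SE 0.05). GAS5, another noncoding host, which carries 8 snoRNA symbols in its row (TC01003532.hg.1), read 9.64, 9.74 and 9.70 in knockdown cells and 9.65, 9.69 and 9.73 in SCR cells (difference 0.00, SE 0.042).

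Ribosomal protein genes are the coding counterpart, and 21 SNOR rows held one. Of these 11 were lower and 10 higher in knockdown cells, with a median of -0.01. An unadjusted p under 0.05 was found in 3 (14.3%, against 11.4% of all tested rows). The brightest SNOR rows were of this class. RPL4/SNORD18C/SNORD18B/SNORD18A/SNORD16 (TC15001579.hg.1) read 12.56, 12.58 and 12.58 in knockdown cells and 12.53, 12.58 and 12.58 in SCR cells (difference 0.01, adjusted p 0.95). RPS2/SNORA64 (TC16000768.hg.1) read 12.40, 12.38 and 12.40 in knockdown cells and 12.42, 12.40 and 12.40 in SCR cells (difference -0.01, adjusted p 0.91). The row with the widest gap in this class was SNORA70/RPL10 (TC0X000769.hg.1), with 9.66, 9.55 and 9.58 in knockdown cells and 9.76, 9.75 and 9.72 in SCR cells (difference -0.15, SE 0.04, adjusted p 0.27). NOP53/SNORD23 (TC19000682.hg.1), for a ribosome biogenesis factor, read 9.85, 9.86 and 9.94 in knockdown cells and 10.02, 10.06 and 10.10 in SCR cells (difference -0.18, SE 0.043, adjusted p 0.24).

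For some snoRNAs the array also had a row with that symbol alone, so the host row and the snoRNA's own row could be set side by side. There were 15 such snoRNAs in 12 shared rows. The own row was higher in knockdown cells for 11 of the 15 and the median own difference was 0.08, against -0.02 for the rows shared with the host. None of the 15 own rows passed the test, and the lowest adjusted p was 0.35. SNORA52, an H/ACA snoRNA, read 9.45, 9.30 and 9.79 in knockdown cells and 9.20, 9.10 and 9.38 in SCR cells in its own row (difference 0.29, SE 0.13), while RPLP2/SNORA52 differed by -0.02. SNORA21 read 10.82, 10.77 and 11.05 in knockdown cells and 10.61, 10.49 and 10.73 in SCR cells (difference 0.27, SE 0.092), while RPL23/SNORA21 differed by 0.04. SNORD10, in contrast, read 10.07, 9.51 and 10.37 in knockdown cells and 10.32, 10.31 and 10.57 in SCR cells (difference -0.42, SE 0.21), while EIF4A1/SNORA67/SNORD10/SNORA48 differed by -0.04.

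**Figure D3:**
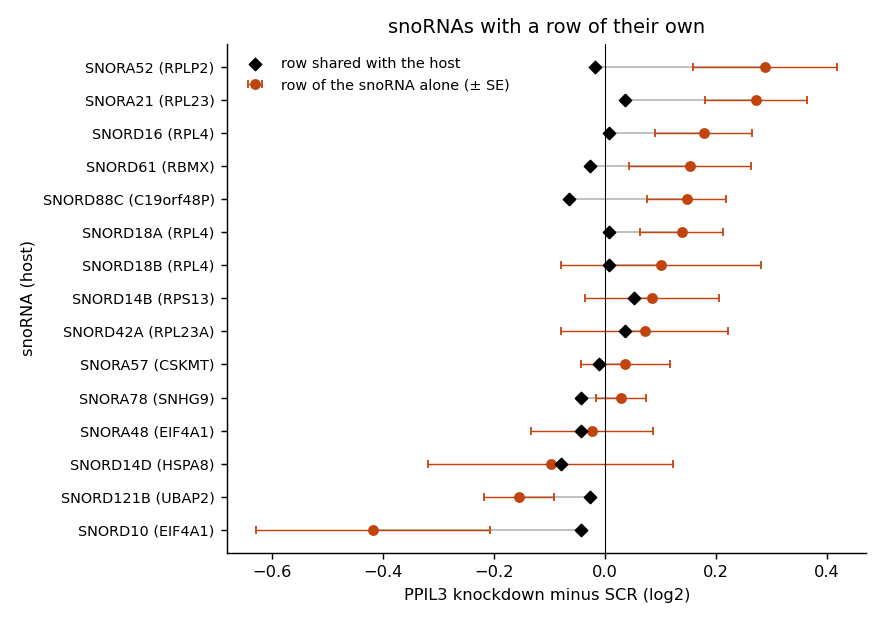
Difference between PPIL3 knockdown and SCR (log2, horizontal axis) for 15 snoRNAs with a row of their own (circles, with the SE) and for the row shared with the host (diamonds). The shared rows lie between -0.08 and 0.05 while the own rows run between -0.42 and 0.29, and none passed the test.

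Rows of snoRNAs alone varied more between arrays of a group than the shared rows. Over 179 tested rows with 1 snoRNA symbol the median difference was 0.10, with 123 higher and 0 called. Of these rows 31.3% were lower, against 55.4% of all tested rows, and 41 had an unadjusted p under 0.05 (22.9%, against 11.4%). Their median SD was 0.203 in knockdown cells and 0.0895 in SCR cells, against 0.0532 and 0.0288 for the SNOR rows. For 25 microRNAs with a row of their own in 23 shared rows, 13 own rows were higher and 12 lower, with a median of 0.01 beside 0.00 for the shared rows. Own rows were matched by symbol alone. By their IDs, those of MIR548D1, MIR548AA2, MIR548D2 and MIR4444-1 lay on another chromosome than the shared row.

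The -AS rows were the fewest and had the median nearest to 0. In 16 of the 33, RefSeq gives the symbols to 1 gene under several names, and in 13 the symbols overlap on the chromosome. CTBP1-AS2/CTBP1-AS1 (TC04000022.hg.1), antisense to a transcriptional corepressor gene, had the smallest p, with 8.31, 8.31 and 8.23 in knockdown cells and 8.42, 8.40 and 8.37 in SCR cells. Its groups did not overlap and the difference was -0.12 (SE 0.037), with an adjusted p of 0.33. ZFAS1/ZNFX1-AS1 (TC20000386.hg.1), a spliced noncoding RNA that hosts snoRNAs, read 9.34, 9.31 and 9.28 in knockdown cells and 9.47, 9.38 and 9.38 in SCR cells (difference -0.10, SE 0.04, adjusted p 0.4). The brightest -AS rows were RCN1/PAX6-AS1 (TC11000304.hg.1), for a calcium-binding protein of the endoplasmic reticulum, and DDOST/PINK1-AS (TC01002316.hg.1), for a subunit of the oligosaccharyltransferase. RCN1/PAX6-AS1 read 9.70, 9.65 and 9.76 in knockdown cells and 9.65, 9.74 and 9.71 in SCR cells (difference 0.01, adjusted p 0.96). DDOST/PINK1-AS read 9.46, 9.51 and 9.54 in knockdown cells and 9.53, 9.48 and 9.50 in SCR cells, and the sign of its difference depended on the scaling (0.00 as deposited, 0.01 after centring each array on its median).

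By the spelling of their symbols, the other rows divided into 92 readthrough rows, 638 rows whose symbols begin alike and 349 further rows. Symbols that begin alike can name a gene family or 1 gene under several names. SMIM13/C6orf228 (TC06000078.hg.1), for a small membrane protein, had the smallest p, with 8.996, 9.02 and 8.92 in knockdown cells and 9.22, 9.24 and 9.21 in SCR cells. The groups did not overlap, and the difference was -0.25 (SE 0.039) with an adjusted p of 0.11 in the fit of all tested rows and 0.044 when only rows with a symbol were fitted. PIP4K2B/PIP5K2B (TC17001433.hg.1), for a phosphoinositide kinase, read 9.66, 9.74 and 9.63 in knockdown cells and 9.95, 9.93 and 9.90 in SCR cells (difference -0.25, SE 0.041, adjusted p 0.13). In both rows RefSeq gives the symbols to 1 gene. That held for 224 of the 1393 shared rows, so these rows are shared by name only. Their median difference was -0.03 with 143 lower in knockdown cells (63.8%, against 55.4% of all tested rows).

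Readthrough rows had a median difference of -0.02, with 18 of 92 at an unadjusted p under 0.05 (19.6%, against 11.4% of all tested rows). SOHLH2/CCDC169-SOHLH2 (TC13001724.hg.1), for a germ cell transcription factor and its readthrough, read 6.37, 6.40 and 6.37 in knockdown cells and 6.21, 6.08 and 6.14 in SCR cells (difference 0.24, SE 0.043, adjusted p 0.16). POC1B/POC1B-GALNT4/GALNT4 (TC12001797.hg.1), for a centriole protein and a glycosyltransferase, read 8.43, 8.44 and 8.46 in knockdown cells and 8.34, 8.30 and 8.24 in SCR cells (difference 0.15, SE 0.039). The row of SLX1A, SLX1B, SULT1A3, SULT1A4 and their readthroughs (TC16000321.hg.1) read 8.73, 8.63 and 8.62 in knockdown cells and 8.86, 8.84 and 8.86 in SCR cells (difference -0.19, SE 0.041). The groups did not overlap in these 3 rows, which were chosen after their values were seen, and none passed the test.

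Families of near-identical genes fill several rows each, and the ones given here were chosen after their values were seen. CKMT1A/CKMT1B (TC15002759.hg.1), a duplicated pair for mitochondrial creatine kinase, read 9.25, 9.05 and 9.08 in knockdown cells and 8.79, 8.81 and 8.79 in SCR cells (difference 0.33, SE 0.058, adjusted p 0.15). A second row with the same pair (TC15002758.hg.1) read 9.38, 9.16 and 9.22 in knockdown cells and 8.94, 8.95 and 8.92 in SCR cells (difference 0.32, SE 0.06). STAG3L2/STAG3L3 (TC07001513.hg.1), a pair of cohesin-like pseudogenes, read 9.82, 9.84 and 9.77 in knockdown cells and 9.98, 10.07 and 10.08 in SCR cells (difference -0.23, SE 0.042, adjusted p 0.16), and all 3 STAG3L rows, which name the same genes, were lower without overlap, as 8.81% of all tested rows were. All 12 rows of the NPIP family, amplified on chromosome 16, were lower in knockdown cells, with a median of -0.12 and 6 of 12 at an unadjusted p under 0.05, beside 5.62% of all tested rows that were lower at that p. All 10 NBPF rows were lower, with a median of -0.05 and 0 of 10 at that p. HSPA1A/HSPA1B (TC06000384.hg.1), the heat-inducible HSP70 pair and the brightest shared row, read 13.12, 13.35 and 13.18 in knockdown cells and 13.06, 13.19 and 13.22 in SCR cells, with overlap (difference 0.06, adjusted p 0.8).

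Replication-dependent histone genes gave the highest differences of all shared rows. Their messages end in a stem-loop instead of a poly(A) tail and have no introns. Of 35 rows whose symbols were all histones, 29 were higher in knockdown cells and 6 lower (17.1%, against 55.4% of all tested rows). The median was 0.18, none passed the test, and the group was picked after its values were seen. Many of these rows name the same set of H4 or H3 genes, so they are not separate readings of 35 genes. The pair H2AC4 and H2AC8 differed by 0.37 in 1 row (TC06001343.hg.1) and by -0.19 in another (TC06000173.hg.1). The row led by H4C4 with 14 H4 symbols (TC06001348.hg.1) read 11.31, 12.36 and 11.60 in knockdown cells and 11.03, 10.97 and 10.74 in SCR cells (difference 0.85, SE 0.26, adjusted p 0.31). The row led by H3C7 with 10 H3 symbols (TC06001353.hg.1) read 11.74, 12.37 and 11.94 in knockdown cells and 11.33, 11.33 and 11.43 in SCR cells (difference 0.65, SE 0.15, adjusted p 0.23). Exon probe sets were matched by symbol and so cover all rows of these genes on a chromosome. Their median difference was 0.17 over 25 probe sets for the H4C4 row (between -0.31 and 2.09). It was 0.13 over 20 for the H3C7 row (between -0.31 and 1.45). For H2AC4/H2AC8 it was -0.06 over 5, and for H2AC19/H2AC18 -0.22 over 6. Knockdown array 2 was the highest of the 6 arrays in 28 of the 35 rows. Without that array the median difference was 0.05 and 22 of 35 rows were higher. H2AC19/H2AC18 (TC01001174.hg.1) was the lowest of the 6 lower rows, with 12.71, 12.57 and 12.63 in knockdown cells and 12.85, 12.83 and 12.89 in SCR cells (difference -0.22, SE 0.046, adjusted p 0.2).

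Short noncoding RNAs encoded in many copies also read high on knockdown arrays 2 and 3. The 5S ribosomal RNA row with 16 symbols (TC01003920.hg.1), 1 of 16 rows with the same values, read 12.34, 12.75 and 12.89 in knockdown cells and 12.19, 12.13 and 12.31 in SCR cells (difference 0.45, SE 0.14, adjusted p 0.31). The U1 spliceosomal RNA row led by RNU1-1 (TC01000218.hg.1), the second brightest of the other rows, read 13.19, 13.30 and 13.49 in knockdown cells and 13.03, 12.94 and 13.08 in SCR cells (difference 0.31, SE 0.082, adjusted p 0.27). RNU6-1/RNU6-6P (TC02002540.hg.1), for the catalytic U6 RNA, read 11.63, 12.04 and 11.91 in knockdown cells and 11.44, 11.44 and 11.59 in SCR cells (difference 0.37, SE 0.11, adjusted p 0.28). The groups did not overlap in these 3 rows. Of them the U1 row was 1 of 7 rows with the same values and the U6 row 1 of 6. RNU5E-1/RNU5D-1 (TC05000402.hg.1) read 7.64, 8.14 and 8.99 in knockdown cells and 7.35, 7.58 and 8.10 in SCR cells, with overlap and an SE of 0.36. Array 3 was the highest array of its group for the U5 row in both groups. The distance of knockdown arrays 1, 2 and 3 to the SCR mean was 0.13, 0.54 and 0.68 for 5S RNA, and 0.17, 0.30 and 0.47 for U1. Rows of 1 snoRNA alone lay at medians of -0.01, 0.06 and 0.15 on the same 3 arrays, against -0.04, -0.04 and 0.07 on the SCR arrays. The part that the level of short RNA on an array had in these differences was not tested.

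**Figure D4:**
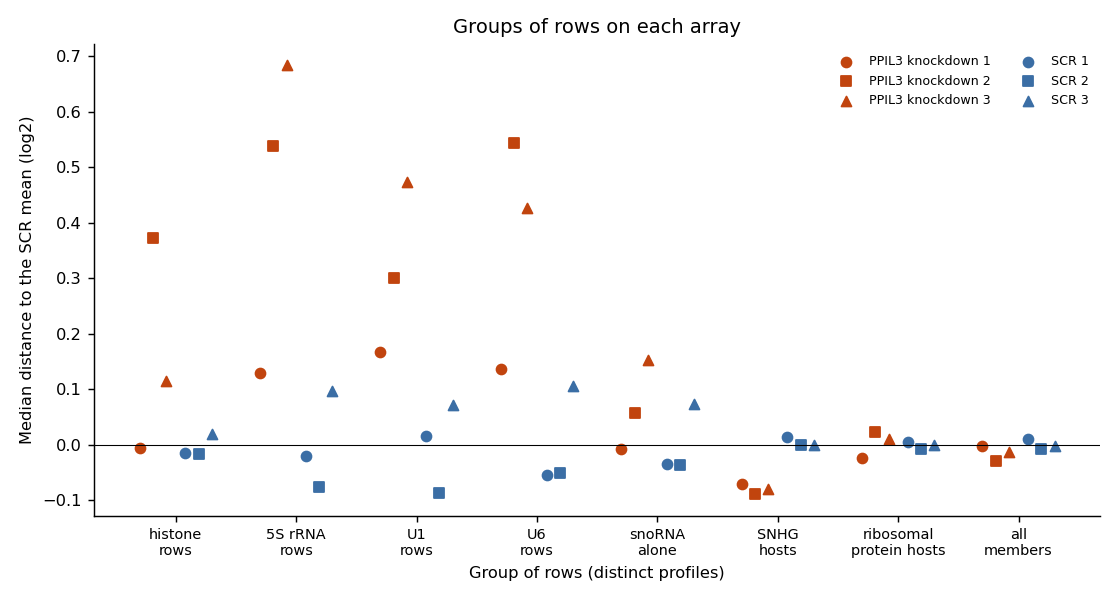
Median distance to the SCR mean (log2, vertical axis) of 8 groups of rows on each array, over distinct profiles, with the 3 PPIL3 knockdown arrays left of the 3 SCR arrays. Knockdown array 2 leads for histone rows at 0.37 and knockdown array 3 for 5S RNA at 0.68, while the 3 knockdown arrays lie between -0.09 and -0.07 for SNHG hosts.

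The cyclophilin family to which PPIL3 belongs had 7 shared rows. MIR130B/PPIL2 (TC22000096.hg.1) holds PPIL2, another cyclophilin of the spliceosome, with a U-box domain. It read 8.62, 8.63 and 8.59 in knockdown cells, against 8.71, 8.72 and 8.71 in SCR cells. The groups did not overlap, and the difference was -0.10 (SE 0.032) with an unadjusted p of 0.02 and an adjusted p of 0.34. Its 54 exon probe sets had a median difference of -0.14. The MIR130B hairpin ends 12627 bases before the nearest PPIL2 start in RefSeq on the same strand, so it is a neighbour and not an intronic passenger. PPIA/PPIAP34 (TC07000278.hg.1), cyclophilin A and a pseudogene, read 10.04, 10.08 and 10.01 in knockdown cells and 10.08, 10.08 and 10.02 in SCR cells (difference -0.02, SE 0.038). The 5 rows of PPIAL4 genes, primate copies of cyclophilin A, differed by 0.00 to 0.10, with adjusted p between 0.69 and 0.99. PPIAL4D/PPIAL4F (TC01001149.hg.1) had the same values as PPIAL4D/PPIAL4E/PPIAL4F (TC01003149.hg.1), with 8.16, 8.45 and 8.28 in knockdown cells and 8.17, 8.25 and 8.19 in SCR cells. One of the PPIAL4C/PPIAL4A/PPIAL4G rows (TC01001163.hg.1) read 5.93, 6.11 and 5.96 in knockdown cells and 5.95, 5.997 and 5.90 in SCR cells.

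**Figure D5:**
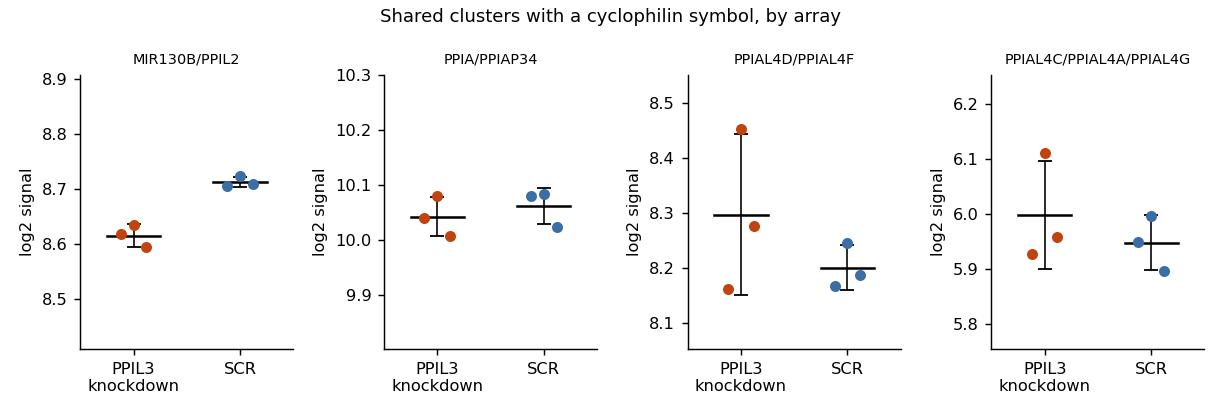
Log2 signal (vertical axis) of 4 shared rows with a cyclophilin symbol on the 3 PPIL3 knockdown arrays and the 3 SCR arrays, with the mean as a bar and the SD as whiskers. Only MIR130B/PPIL2 among these 4 has groups that do not overlap, at 8.59 to 8.63 in knockdown cells and 8.71 to 8.72 in SCR cells.

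The probe sets offered a way to look inside a shared row, and it reached few of them. No probe set of the shared rows passed the test (0 of 43784, against 32 of all 745098 tested probe sets, 0.00429%), and 10.1% of them had an unadjusted p under 0.05 against 9.45% of all. The annotation of a probe set mostly repeats all symbols of its row. RefSeq gives 2 genes for 803 rows with 2 symbols, at any mean signal and with each pair counted once per chromosome or alternative sequence. Of these 803 rows, 31 had at least 2 exon probe sets for each symbol alone. In these 31 the change of symbol A was set against that of symbol B on each array, and 0 passed at an adjusted p of 0.05 with limma, while 9 had an unadjusted p under 0.05. Of the 31 rows 7 were copies of LOC100507547/PRRT1, and all 7 were among the 9, so the 9 are not separate loci. Without the alternative histocompatibility sequences 24 rows were left, of which 0 passed and 3 had an unadjusted p under 0.05.

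The smallest p was in HOXA3/HOXA6 (TC07003351.hg.1), 2 homeobox genes. The 21 exon probe sets of HOXA3 averaged 8.50, 8.39 and 8.40 in knockdown cells and 8.50, 8.49 and 8.44 in SCR cells. The 6 exon probe sets of HOXA6 averaged 9.82, 9.70 and 9.71 in knockdown cells and 9.95, 9.93 and 9.97 in SCR cells. HOXA3 thus differed by -0.05 and HOXA6 by -0.21, and the difference of the 2 was 0.16 (SE 0.037, adjusted p 0.075), while the row as a whole differed by 0.01. In BAIAP2L1/BRI3 (TC07001635.hg.1) BAIAP2L1 differed by 0.04 and BRI3 by -0.12 (difference of the 2 0.15, SE 0.044, adjusted p 0.075), while the row read 9.39, 9.41 and 9.38 in knockdown cells and 9.38, 9.38 and 9.37 in SCR cells. In 2 copies of LOC100507547/PRRT1 (TC6_cox_hap2000263.hg.1 and TC6_qbl_hap6000235.hg.1), the first symbol differed by 0.12 and PRRT1 by -0.05 (difference of the 2 0.16, SE 0.049). Of all 31 rows, copies included, 7 passed with the median over probe sets in place of the mean, 10 without knockdown array 1 and 8 without SCR array 2.

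Genes of the machinery that releases these small RNAs were read in the same fit. Of 17 genes of microRNA processing 11 had a row with 1 symbol and 6 a shared row. None of the 17 rows was called and the median was -0.01 beside -0.01 for all rows. An unadjusted p under 0.05 was found in 2, beside 11.4% of all tested rows. Of the shared rows 2 held microRNAs. DDX5/MIR3064/MIR5047 (TC17001800.hg.1), for an RNA helicase of the microprocessor, read 12.07, 12.05 and 12.05 in knockdown cells and 12.04, 12.07 and 12.09 in SCR cells (difference -0.01). MIR1306/DGCR8/MIR3618 (TC22000053.hg.1), for the double-stranded RNA binding partner of DROSHA, read 8.81, 8.85 and 8.72 in knockdown cells and 8.86, 8.86 and 8.88 in SCR cells (difference -0.08, adjusted p 0.58). The AGO1, AGO2, AGO3 and AGO4 rows were shared by name only, with their older EIF2C symbols, and differed by 0.02, -0.06, 0.02 and 0.00.

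Of 18 genes of snoRNA particles none of the 18 rows was called and 0 had an unadjusted p under 0.05, with a median of 0.03. Of these, 16 had a row with 1 symbol and 2 sat in rows shared with snoRNAs. DKC1/SNORA56/SNORA36A/MIR664B (TC0X000779.hg.1), for the pseudouridine synthase dyskerin, read 10.21, 10.36 and 10.31 in knockdown cells and 10.25, 10.31 and 10.34 in SCR cells (difference -0.01). The NOP56 row with 5 snoRNAs and MIR1292 (TC20000026.hg.1), for a C/D box core protein, read 10.20, 10.13 and 10.18 in knockdown cells and 10.19, 10.13 and 10.17 in SCR cells (difference 0.01). The groups overlapped in both. Of 20 genes of RNA ends and lariat turnover 17 had a row of their own and 2 a shared row. None of the 19 rows was called and the median was 0.00, while 4 had an unadjusted p under 0.05, beside 11.4% of all tested rows.

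At the minimum of 5, the rows just inside were DEFB4B/DEFB4A (TC08000919.hg.1), with 5.08, 4.995 and 4.84 in knockdown cells and 4.88, 5.06 and 5.22 in SCR cells, and OR56B1/TRIM22 (TC11000117.hg.1), with 5.06, 5.004 and 5.06 in knockdown cells and 5.06, 5.06 and 5.03 in SCR cells. Just outside lay ZNF705A/ZNF705EP (TC12003233.hg.1), with 4.96 to 5.04 in knockdown cells and 4.96 to 4.99 in SCR cells.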

How the data were processed

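Per the labels, the authors used RMA in Affymetrix Expression Console (no version named). The deposited values are log2 signals, 1 per transcript cluster (70523 rows, 67528 of them transcript clusters) or 1 per probe set. RMA equalizes the arrays, so a change common to most transcripts would not be seen. The number of arrays limits the precision. No source used here names the build of the files.

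Symbols came from the platform annotation and were related to each other by RefSeq (GRCh38.p14), with neighbours within 10 kb. All 52385 clusters with a mean of at least 5 were fitted with limma 3.58.1 (lmFit, eBayes, two-sided, Benjamini-Hochberg at 0.05) in R 4.3.3 with the package data.table, version 1.17.8, and statmod 1.5.0, and tested on simulated data first. Probe sets were fitted likewise. Python 3.11.15, pandas 2.3.3 and matplotlib 3.10.9 made the plots and lookups. Named were PPIL3, rows called, rows with a cyclophilin symbol, the 2 brightest and the 2 with the smallest p of each kind, the 4 rows with the smallest p between their 2 symbols and the rows beside the minimum. Other rows were chosen after their values were seen. The rows and lists were chosen with earlier results of these data known. Alternatives were a replicate block, other filters, normalizations, priors, array weights, exon means and leaving out each array.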

Additional observations from a re-analysis of the deposited data

How the results depend on the processing

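The count of 0 shared rows called stood under the replicate block, no filter, a minimum of 6, centring, quantile normalization, a trend prior, no moderation, identical rows tested once (added after seeing the data) and without each array (0 to 0). With rows with a symbol only, refitted, 7 were called (1 higher, 6 lower), and the cause was not tested. With array weights 46 were called (3.3%, 12 higher and 34 lower), against 1313 of all rows (2.51%), with knockdown array 2 weighted 0.315 and SCR array 2 2.47. Both groups share replicate numbers, and same-numbered deviations correlated at 0.301, 0.00698 and 0.179, so the numbers were not taken as pairs. With the replicate block the rows whose symbols differed numbered 9 (adjusted p 0.011 for HOXA3/HOXA6, BAIAP2L1/BRI3 and LOC100507547/PRRT1), against 7 with medians, 1 with a trend prior and 0 to 10 without each array (10 without knockdown array 1, 8 without SCR array 2). It was 0 of 24 without the alternative histocompatibility sequences, added after seeing the data. PPIL3 stayed at -0.51 but had an adjusted p of 0.15 with the replicate block and 0.14 without moderation, and its difference ran between -0.53 and -0.50 without each array. 

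Among named rows and alternatives 1065 kept sign and call, 28 became called and 51 changed sign. DDOST/PINK1-AS turned to 0.0061 after centring, 0.0293 with array weights and 0.0087 with exon means, and ran from -0.0185 to 0.0222 without each array. After centring DDX5/MIR3064/MIR5047 was 0.0007 and the SNHG1 row 0.0008. With quantile normalization RPL4/SNORD18C/SNORD18B/SNORD18A/SNORD16 was -0.0621, OR56B1/TRIM22 0.0014 and the GAS5 row -0.0031. With array weights PPIAL4 rows were -0.0410 and -0.0388, HOXA3/HOXA6 -0.0084, OR56B1/TRIM22 0.0044, the GAS5 row -0.0083 and the SNHG1 row 0.0244. With exon means HOXA3/HOXA6 was -0.0816, BAIAP2L1/BRI3 -0.0158, DEFB4B/DEFB4A 0.0108, MIR499A/MIR499B -0.0355, DDX5/MIR3064/MIR5047 0.0101 and the SNHG1 row 0.0309. Ranges without each array were -0.0453 to 0.0322 for HOXA3/HOXA6, -0.1224 to 0.0458 for the MIR17HG row, -0.0403 to 0.0338 for the DKC1 row, -0.0088 to 0.0244 for the NOP56 row, -0.0043 to 0.0873, -0.0482 to 0.0451 and -0.0338 to 0.0488 for PPIAL4 rows, -0.0015 to 0.1133 for HSPA1A/HSPA1B, -0.0170 to 0.0090 for OR56B1/TRIM22, -0.0214 to 0.0284 for the GAS5 row, -0.0375 to 0.0403 for the SNHG1 row, -0.0195 to 0.0346 for RCN1/PAX6-AS1, -0.0080 to 0.0161 for the RPL4 row, -0.1651 to 0.0056 for DEFB4B/DEFB4A and -0.0189 to 0.0046 for the DDX5 row. The causes were not tested.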

Other observations

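The 136 shared rows on alternative sequences of the major histocompatibility complex hold 104 distinct profiles. They repeat loci on several haplotypes, so they are not independent. Of them 105 were lower in knockdown cells (77.2%, against 55.4% of all tested rows), with a median difference of -0.05 beside -0.01 over all tested rows, and 47 had an unadjusted p under 0.05 (34.6%, against 11.4%). None passed the test with limma. The 6 GPANK1/BAT4 rows, of which TC6_cox_hap2000163.hg.1 is one, are 1 gene under several names, and that row averaged 8.07 in knockdown cells and 8.24 in SCR cells (difference -0.17, adjusted p 0.27). SAPCD1/MSH5/MSH5-SAPCD1 (TC6_dbb_hap3000068.hg.1), a readthrough of the mismatch repair family gene MSH5, averaged 8.45 in knockdown cells and 8.64 in SCR cells (difference -0.19, adjusted p 0.26). DDX39B/SNORD84/BAT1 (TC6_cox_hap2000252.hg.1), for a helicase of splicing and RNA export, differed by -0.14 (adjusted p 0.27). The 6 HLA rows, picked after their values were seen, were higher in knockdown cells by 0.06 to 0.18, as 23356 of 52385 tested rows were higher. The groups overlapped in all 6, 0 had an unadjusted p under 0.05 and the lowest limma adjusted p was 0.5.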
